A study of Homo sapiens with 18 samples.

Results

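The Fc receptor-like family comprised 7 genes, FCRL1, FCRL2, FCRL3, FCRL4, FCRL5, FCRLA and FCRLB, found by their symbols among the 23686 gene symbols of the deposited tables, which held all 7. FCRL2 had drawn attention to the family because its level was seen to be lower after treatment in one cell line and level in the other, so the family was chosen by the measured treatment differences of FCRL2, which are given here as a description and were not tested. Bulk RNA-seq of ribosomal RNA-depleted total RNA had been done on 2 human diffuse large B-cell lymphoma lines, OCI-Ly1, a germinal-centre-type line kept in IMDM, and TMD8, an activated-B-cell-type line kept in RPMI 1640. Each line had a vehicle group with 0.01% DMSO, a group with 150 nM JIB-04 and a group with 500 nM JIB-04, with 3 libraries per group and 18 libraries in all. JIB-04 is a small-molecule inhibitor of the Jumonji family of histone demethylases. The length of treatment was not given in the sources used here. Cell line and culture medium changed together and cannot be told apart. The labels call the 3 libraries of a group technical triplicates, so the p-values measure the spread between these libraries, which may be technical.

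FCRL proteins are relatives of the classical receptors for the constant part of immunoglobulins and are made mostly by B cells. FCRL1, FCRL2, FCRL3, FCRL4 and FCRL5 sit in the cell membrane and carry tyrosine motifs in their cytoplasmic tails; the tail of FCRL1 is of the activating kind, and those of FCRL2, FCRL3, FCRL4 and FCRL5 can recruit phosphatases that damp signalling from the B-cell receptor. FCRLA and FCRLB lack a membrane anchor and remain inside the cell, where FCRLA binds immunoglobulin in the endoplasmic reticulum. FCRL4 and FCRL5 are widely used as markers of particular memory B-cell subsets.

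The OCI-Ly1 libraries held 17579732 to 32651115 estimated counts each, those of TMD8 9550092 to 20509500. All 6 of 6 B-cell markers averaged at least 1 TPM (transcripts per 1000000, a length-corrected unit) in each of the 6 groups, and 0 of 5 monocyte and macrophage markers did. All 7 activated-B-cell-type markers averaged at least 1 TPM in TMD8 and 5 of 7 in OCI-Ly1, while 4 of 6 germinal-centre-type markers did so in both lines. In the text below CPM is counts per 1000000 of a library's effective size, adjusted within each line by the TMM method, TPM is the value the authors deposited, ± is the SD over 3 libraries, and a log2 fold change is edgeR's unless another tool is named. A gene was called changed where its adjusted p over all genes tested was below 0.05.

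Untreated OCI-Ly1 and TMD8 cells held 6 of the 7 members in common, at different levels, and FCRL4 was near 0 in OCI-Ly1. In OCI-Ly1 with DMSO, the intracellular FCRLA stood at 349.9, 346.8 and 352.1 TPM, far above the other members. FCRL3 followed at 47.1 ± 1.59 TPM, then FCRLB at 22.1 ± 0.910 TPM and FCRL2 at 17.7 ± 0.407 TPM, with no overlap between neighbours in this order. FCRL1 at 9.38 to 9.62 TPM and FCRL5 at 7.98 to 9.71 TPM overlapped. FCRL4 had 3, 0 and 0 counts, at or below the 3 counts per library below which no fold change is given. In TMD8 with DMSO, the membrane receptors FCRL3 and FCRL5 came first, at 55.7 to 67.2 and 48.2 to 59.8 TPM, ranges that overlapped. FCRLA at 36.8 to 45.9 TPM and FCRL2 at 34.4 to 43.1 TPM overlapped as well. FCRL1 at 2.04 to 2.33 TPM, FCRL4 at 1.67 to 2.42 TPM and FCRLB at 1.60 to 1.99 TPM formed the lowest tier of TMD8, and the range of FCRL4 overlapped those of the other two.

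Set against each other under DMSO in a fit of all 18 libraries, all 6 of 6 members tested differed between the lines, against 76.7% of all genes (37.8% higher and 39.0% lower in OCI-Ly1). FCRLB, FCRLA and FCRL1 were higher in OCI-Ly1, by 6.23-fold (log2 2.64, SE 0.10, edgeR adjusted p 6.1e-19), 4.44-fold (log2 2.15, SE 0.05, edgeR adjusted p 9.4e-24) and 2.20-fold (log2 1.14, SE 0.10, edgeR adjusted p 1.7e-11). FCRL5, FCRL2 and FCRL3 were higher in TMD8, by 11.8-fold (log2 -3.56, SE 0.07, edgeR adjusted p 1.9e-25), 4.11-fold (log2 -2.04, SE 0.06, edgeR adjusted p 2.9e-21) and 2.48-fold (log2 -1.31, SE 0.05, edgeR adjusted p 4.2e-19). FCRL4, with 148 to 169 counts in TMD8 and 0 to 3 in OCI-Ly1, was at least 56.5-fold higher in TMD8, taking 3 counts per library as the floor. The sizes depended on the unit: on log2(TPM + 1), where the median of all genes lay at 0.72, the differences were 3.05 for FCRLB, 3.10 for FCRLA, 1.71 for FCRL1, -2.47 for FCRL5, -1.03 for FCRL2 and -0.33 for FCRL3, with no change of direction. The 5 membrane receptors thus did not all lie on one side: FCRL1 was the one higher in OCI-Ly1.

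The membrane receptor genes lie side by side on chromosome 1 in the order FCRL5, FCRL4, FCRL3, FCRL2, FCRL1, and FCRLA and FCRLB form a second pair on the same chromosome. RefSeq promoter sequences (build GRCh38.p14, 250 bases before to 50 after a start site) were matched for all 7 members, with 9 entries because FCRLB has 3. The letters GGAAGT, the core bound by ETS-family factors, occurred on either strand in promoters of 5 of 7 members (FCRL1, FCRL2, FCRL4, FCRL5 and FCRLA). By entry this was 5 of 9, against 22.8% of all 35116 promoter entries. The longer AGGAAGT, which contains it and resembles the site of PU.1, occurred in 4 of 7 members, or 4 of 9 entries, against 8.24% of all entries. Each of these matches read GGAAGT on the strand opposite to the gene, which appears as ACTTCC in the gene's own direction. The nearest to the start site lay at bases -16 to -11 in FCRL1, -18 to -13 in FCRL4 and FCRL5, -44 to -39 in FCRLA and -60 to -55 in FCRL2, counted from the start site with -1 as the last base before it. The octamer ATTTGCAT occurred in FCRLB alone (1.77% of all promoters), at bases -65 to -58, and an interferon response element of paired GAAA letters in FCRL1 and FCRLA (3.57%). The letters CCCNNGGG, TGATGCAA, TGACGTCA, CACGTG and TATAAA, searched on both strands, matched none of the 9 entries. A match describes these letters in this window and is no evidence of binding. The promoters of FCRL2 (chr1:157777083-157777382, minus strand), of its neighbour FCRL3 (chr1:157700720-157701019, minus strand), and of FCRL5 (chr1:157552466-157552765, minus strand) and FCRLA (chr1:161706979-161707278, plus strand) are shown because the first pair stood lower at 500 nM in OCI-Ly1 and the second pair higher; capitals mark each ACTTCC.
FCRL2: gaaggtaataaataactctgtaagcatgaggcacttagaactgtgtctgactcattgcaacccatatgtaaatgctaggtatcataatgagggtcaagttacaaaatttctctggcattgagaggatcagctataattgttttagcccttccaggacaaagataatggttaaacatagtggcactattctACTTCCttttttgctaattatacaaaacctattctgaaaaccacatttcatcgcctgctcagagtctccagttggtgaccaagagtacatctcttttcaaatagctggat
FCRL3: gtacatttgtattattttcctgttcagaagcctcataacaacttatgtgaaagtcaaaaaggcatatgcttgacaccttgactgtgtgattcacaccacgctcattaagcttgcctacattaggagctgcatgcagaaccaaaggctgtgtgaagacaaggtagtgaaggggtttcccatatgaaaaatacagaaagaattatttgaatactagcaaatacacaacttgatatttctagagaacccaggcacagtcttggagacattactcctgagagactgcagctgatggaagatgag
FCRL5: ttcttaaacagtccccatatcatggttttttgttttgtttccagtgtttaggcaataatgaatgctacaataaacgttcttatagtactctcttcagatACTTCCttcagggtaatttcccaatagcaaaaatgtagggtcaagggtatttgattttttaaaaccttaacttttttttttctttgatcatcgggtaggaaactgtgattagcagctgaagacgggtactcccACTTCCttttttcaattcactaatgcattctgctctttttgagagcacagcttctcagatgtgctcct
FCRLA: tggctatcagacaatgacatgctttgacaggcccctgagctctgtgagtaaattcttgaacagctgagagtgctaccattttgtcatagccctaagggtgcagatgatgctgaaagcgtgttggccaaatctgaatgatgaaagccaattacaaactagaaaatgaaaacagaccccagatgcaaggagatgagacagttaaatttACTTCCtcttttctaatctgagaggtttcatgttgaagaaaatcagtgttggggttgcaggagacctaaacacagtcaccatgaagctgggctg
FCRL2, FCRL5 and FCRLA hold the capital letters, FCRL5 at 2 places, and FCRL3 holds none. Of the members not shown that were lower at 500 nM in OCI-Ly1, FCRL1 has a match and FCRLB has none. Any link between the letters and the direction of the change was not tested.

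In OCI-Ly1, 500 nM JIB-04 divided the family: FCRL1, FCRL3 and FCRLB fell, FCRL5 and FCRLA rose, and FCRL2 stood about 5.11-fold lower. FCRL2, an inhibitory-type receptor of memory B cells, had 34.5, 35.0 and 34.7 CPM with DMSO, 29.7, 31.7 and 30.4 CPM at 150 nM and 6.44, 6.70 and 7.25 CPM at 500 nM. The 3 groups did not overlap, and nearly all of the difference lay between 150 and 500 nM. As a description, the log2 fold change at 500 nM was -2.35 with a 95% confidence interval of -2.52 to -2.19, and from 150 to 500 nM it was -2.17. The counts behind it were 596 to 871 per DMSO library and 173 to 220 per 500 nM library.

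**Figure D1:**
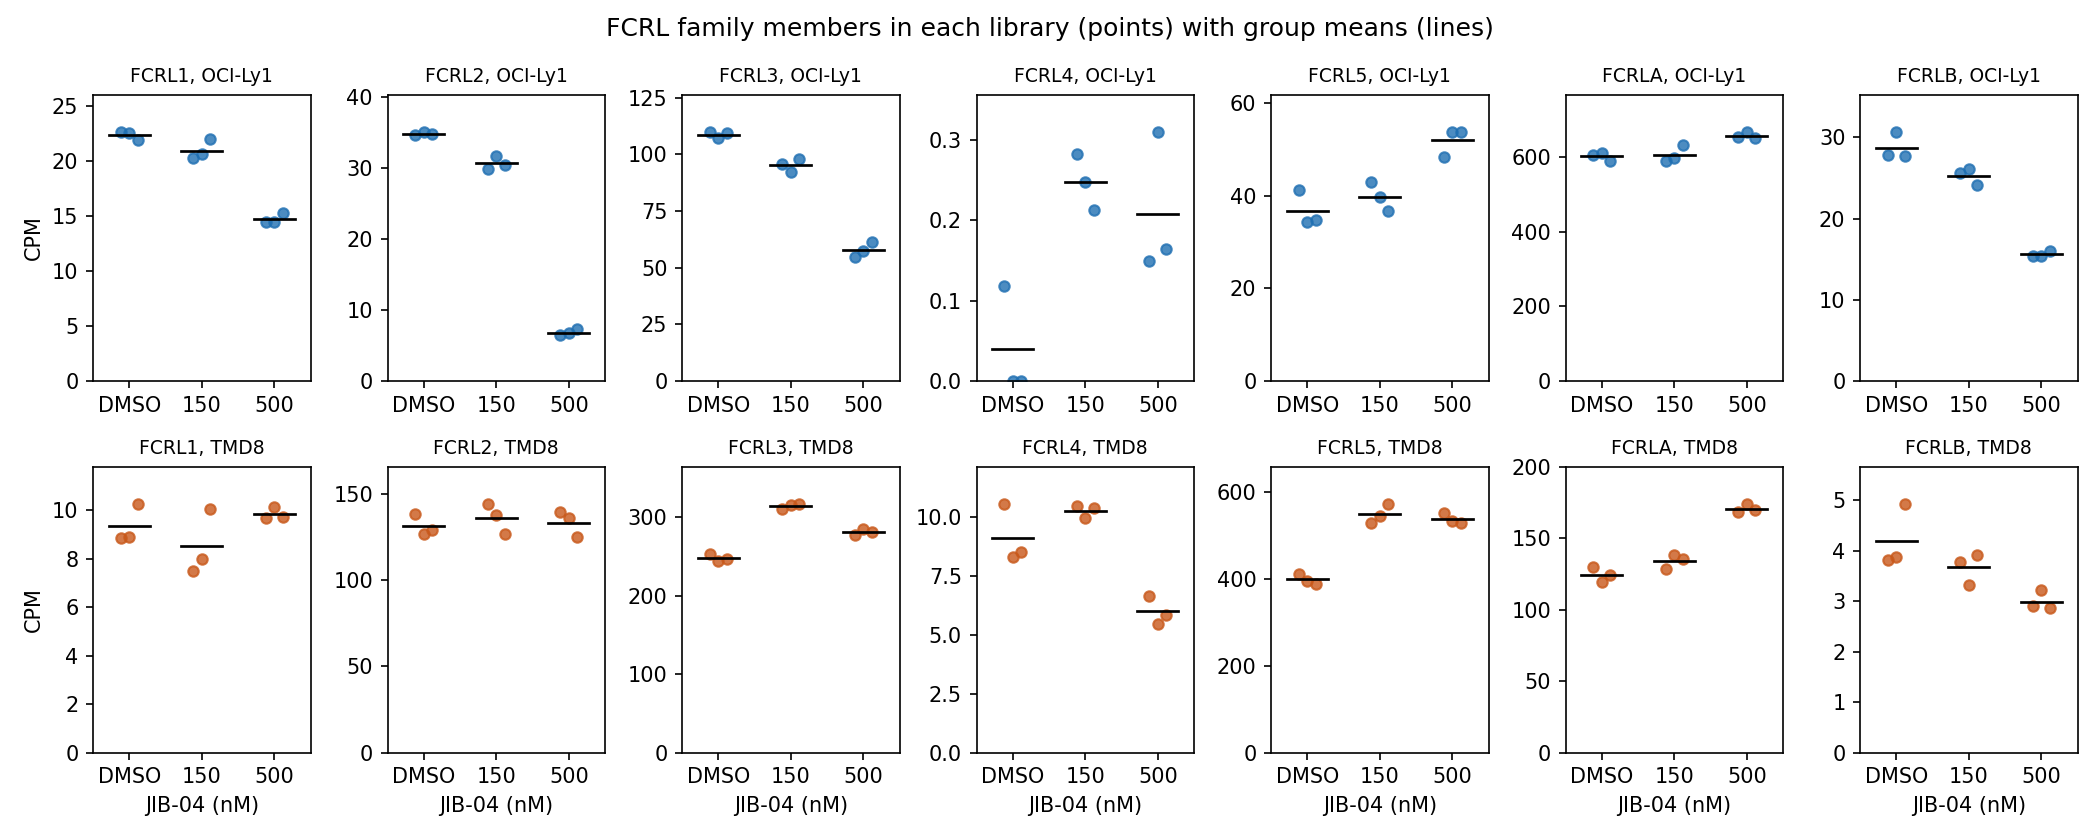
CPM of the 7 members in each library (points; vertical axis in CPM, starting at 0, with its own range in each panel) by JIB-04 dose on the horizontal axis, OCI-Ly1 above and TMD8 below; black lines are means of 3 libraries. In OCI-Ly1, FCRL2 sits at 34.7 ± 0.222 CPM with DMSO and 6.79 ± 0.413 CPM at 500 nM, while in TMD8 its 3 groups overlap; FCRL4 in OCI-Ly1 rests on 0 to 8 counts per library.

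FCRL3, whose product binds secretory IgA, had 109.8, 107.2 and 109.3 CPM with DMSO, 95.7, 92.1 and 98.1 CPM at 150 nM and 54.6, 57.3 and 61.2 CPM at 500 nM. No group overlapped another. It fell 1.89-fold at 500 nM (log2 -0.91, SE 0.06, edgeR adjusted p 4.0e-10). An antisense RNA gene is annotated inside FCRL3 in GENCODE, and since the sources used here do not say whether strand was used in counting, its reads cannot be told apart from those of FCRL3. FCRL1, the activating-type receptor, had 22.6, 22.5 and 21.9 CPM with DMSO and 14.4, 14.5 and 15.3 CPM at 500 nM, and fell 1.52-fold (log2 -0.60, SE 0.08, edgeR adjusted p 4.3e-06). Its 150 nM libraries, at 20.2, 20.6 and 21.9 CPM, overlapped the DMSO range.

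FCRLB, the less abundant of the intracellular members, had 27.9, 30.6 and 27.7 CPM with DMSO and 15.4, 15.4 and 16.0 CPM at 500 nM. The groups were apart, and FCRLB fell 1.84-fold (log2 -0.88, SE 0.08, edgeR adjusted p 3.0e-08). FCRLA, its neighbour on the chromosome, had 605.9, 611.4 and 588.6 CPM with DMSO and 652.1, 665.7 and 649.5 CPM at 500 nM. This was a rise of 1.09-fold (log2 0.12, SE 0.04, edgeR adjusted p 0.021), small beside the other changes; it was not called without OCI-Ly1 DMSO replicate 3 (edgeR adjusted p 0.080), without 500 nM replicate 1 (0.052) or replicate 2 (0.087), with no low-count filter (0.053), or by limma on median-centred log2(TPM + 1) (0.30). FCRL5, which binds IgG, had 41.3, 34.4 and 34.7 CPM with DMSO, 42.9, 39.7 and 36.7 CPM at 150 nM and 48.4, 53.7 and 53.7 CPM at 500 nM. It rose 1.41-fold at 500 nM (log2 0.49, SE 0.08, edgeR adjusted p 6.0e-05). FCRL4, an inhibitory-type receptor of tissue-based memory B cells, had 3, 0 and 0 counts with DMSO, 7, 6 and 4 counts at 150 nM and 5, 8 and 5 counts at 500 nM; these counts are too few for a fold change and were below the count filter.

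Of the 5 members tested in OCI-Ly1 at 500 nM, 5 were called, 2 higher and 3 lower, against 53.6% of all genes (27.7% higher and 25.9% lower). From 150 to 500 nM the same comparison called 5 of 5, again 2 higher and 3 lower, against 46.2% of all genes (25.1% higher and 21.1% lower). The comparisons of 150 and 500 nM with DMSO share the DMSO libraries, and that between the doses shares libraries with each. FCRLA in the comparison between the doses (log2 0.12, edgeR adjusted p 0.034) was not called on centred TPM (limma adjusted p 0.34), with no low-count filter (edgeR adjusted p 0.12), without 150 nM replicate 1 (0.12) or 2 (0.14), or without 500 nM replicate 1 (0.086), 2 (0.14) or 3 (0.063). At 150 nM, 0 of 5 members were called by edgeR and 0 by DESeq2, against 0.889% of all genes (0.748% higher and 0.141% lower). FCRL3 (log2 -0.19, 95% confidence interval -0.31 to -0.07, edgeR adjusted p 0.16) was thus not called. Nor was FCRLB (log2 -0.18, 95% confidence interval -0.34 to -0.03, edgeR adjusted p 0.39). These intervals are not adjusted for the number of genes. FCRL2 differed by -0.18 on the log2 scale, with its 150 nM libraries below all 3 DMSO libraries.

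The summed RNA of genes used as T-cell markers was lower with dose in the same line, while not every marker was called. The summed TPM of the 5 markers was 27.2 to 29.8 with DMSO, 19.97 to 23.5 at 150 nM and 12.3 to 14.2 at 500 nM in OCI-Ly1, of which 2 of 5, CD3D and CD3G, averaged at least 1 TPM, and it was 1.48 to 2.13 over the TMD8 groups. CD3E, CD2 and CD8A averaged below 1 TPM in each group, and CD2 had 1 to 2 counts at 500 nM in OCI-Ly1. There CD3D and CD3G were at -1.38 and -1.13 on the log2 scale (edgeR adjusted p 2.0e-06 and 5.1e-07). CD3E at 0.05 and CD8A at -0.69 were not called (edgeR adjusted p 0.93 and 0.064). The 5 natural killer cell markers, of which 1 averaged at least 1 TPM, summed to 7.27 to 9.78 TPM with DMSO and 5.003 to 6.37 TPM at 500 nM. Of the 5 plasma-cell markers, 2 were higher and 1 lower of 4 tested in OCI-Ly1 at 500 nM (XBP1 at 1.70, TNFRSF17 at 1.44 and MZB1 at -0.85 on the log2 scale). In TMD8 4 of 5 were higher and 0 lower (SDC1 at 2.78, XBP1 at 0.70, TNFRSF17 at 0.66 and PRDM1 at 0.18). Of all genes, 27.7% were higher and 25.9% lower in OCI-Ly1 at 500 nM, and 29.9% and 30.7% in TMD8. The summed TPM of the plasma-cell markers was 381.3 to 398.3 with DMSO and 400.1 to 432.9 at 500 nM in OCI-Ly1. There SDC1 had 0 counts with DMSO and 1 to 5 at 500 nM. The summed TPM in TMD8 was 103.7 to 114.7 and 93.9 to 109.8. The part of these marker genes in the FCRL differences was not tested. In bulk RNA, fewer cells of a type and less RNA per cell cannot be told apart.

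**Figure D2:**
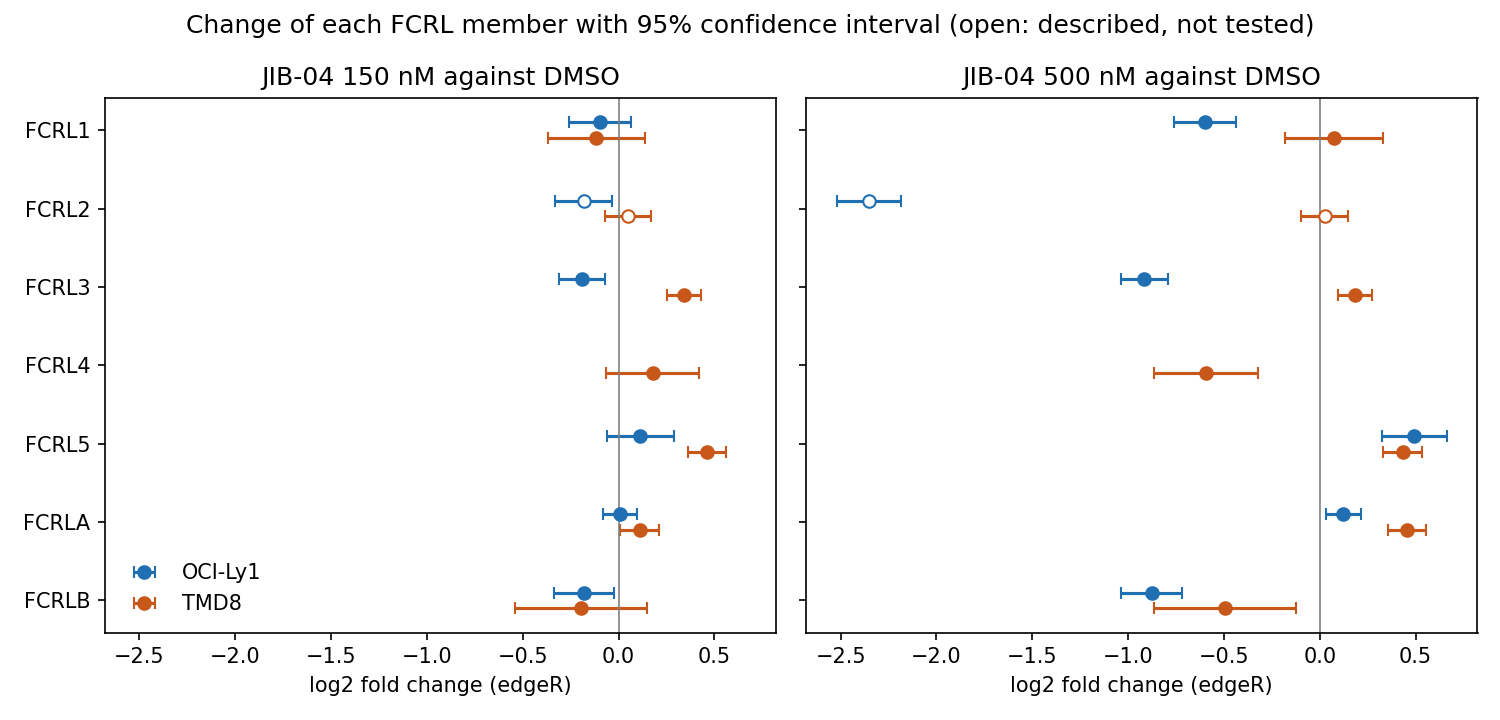
edgeR log2 fold change against DMSO (horizontal axis) with 95% confidence intervals for each member at 150 nM (left) and 500 nM (right), blue for OCI-Ly1 and orange for TMD8; open circles mark FCRL2, described and not tested, and FCRL4 is drawn for TMD8 only. At 500 nM FCRL1, FCRL2 and FCRL3 lie left of 0 in OCI-Ly1 at -0.60, -2.35 and -0.91, and FCRL5 lies right of 0 in both lines at 0.49 and 0.43.

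In TMD8 the family changed in another pattern, in which FCRL5 and FCRL3 rose at both doses and FCRL2 was level in CPM. FCRL2 had 138.1, 126.8 and 129.1 CPM with DMSO, 144.2, 137.6 and 126.7 CPM at 150 nM and 139.3, 135.9 and 124.7 CPM at 500 nM. In CPM the 3 groups overlapped throughout, and the described log2 differences were 0.05 at 150 nM and 0.02 at 500 nM. In TPM the 500 nM libraries, at 28.5 to 29.9, lay below the DMSO libraries, at 34.4 to 43.1. FCRL5 had 412.4, 396.5 and 389.3 CPM with DMSO, 529.9, 546.0 and 573.0 CPM at 150 nM and 552.8, 534.3 and 528.9 CPM at 500 nM. It rose 1.38-fold at 150 nM (log2 0.46, SE 0.05, edgeR adjusted p 7.5e-07) and 1.35-fold at 500 nM (log2 0.43, SE 0.05, edgeR adjusted p 3.9e-07), with no difference called between the doses (log2 -0.03, 95% confidence interval -0.13 to 0.07, edgeR adjusted p 0.70).

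FCRL3 had 253.4, 243.6 and 246.0 CPM with DMSO, 309.6, 315.4 and 316.7 CPM at 150 nM and 277.6, 285.3 and 280.6 CPM at 500 nM. Its highest group was the middle dose, and no groups overlapped. FCRL3 rose by 0.34 on the log2 scale at 150 nM (SE 0.04, edgeR adjusted p 5.5e-06) and by 0.18 at 500 nM (SE 0.04, edgeR adjusted p 0.0012), and was lower at 500 than at 150 nM (log2 -0.16, SE 0.04, edgeR adjusted p 0.0092); without 500 nM replicate 1 that last difference was not called (log2 -0.15, edgeR adjusted p 0.052). FCRL4 had 10.5, 8.30 and 8.50 CPM with DMSO, 10.4, 9.95 and 10.4 CPM at 150 nM and 6.66, 5.46 and 5.83 CPM at 500 nM. It fell 1.51-fold at 500 nM (log2 -0.59, SE 0.13, edgeR adjusted p 6.5e-04), and 150 nM was not called (log2 0.18, edgeR adjusted p 0.23), though it was without DMSO replicate 1 (log2 0.29, edgeR adjusted p 0.043). FCRL1 had 8.84, 8.88 and 10.3 CPM with DMSO and 9.67, 10.1 and 9.71 CPM at 500 nM, which was not called (log2 0.07, 95% confidence interval -0.18 to 0.33, edgeR adjusted p 0.62).

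The intracellular members again went opposite ways. FCRLA had 129.8, 119.3 and 124.4 CPM with DMSO, 128.7, 138.5 and 135.5 CPM at 150 nM and 168.1, 174.0 and 169.7 CPM at 500 nM. It rose 1.37-fold at 500 nM (log2 0.46, SE 0.05, edgeR adjusted p 2.1e-07), and 150 nM was not called (log2 0.11, edgeR adjusted p 0.071), though it was without DMSO replicate 1 (0.14, edgeR adjusted p 0.021), without 150 nM replicate 1 (0.14, edgeR adjusted p 0.037) and with library size as the sole scaling (0.20, edgeR adjusted p 0.0015). FCRLB had 3.81, 3.87 and 4.93 CPM with DMSO and 2.90, 3.22 and 2.86 CPM at 500 nM, from 28 to 98 counts per library. It fell 1.41-fold (log2 -0.49, SE 0.18, edgeR adjusted p 0.022), a call lost with DESeq2 (adjusted p 0.066), with library size as the sole scaling (0.060), on centred TPM by limma (0.083), and without DMSO replicate 3 (edgeR adjusted p 0.12), 500 nM replicate 1 (0.075) or replicate 3 (0.058).

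Of 6 members tested in TMD8, 2 were called at 150 nM, both higher, against 44.2% of all genes (19.2% higher and 25.0% lower), and 4 were called without DMSO replicate 1. At 500 nM 5 of 6 were called, 3 higher and 2 lower, against 60.7% (29.9% higher and 30.7% lower). Between 150 and 500 nM 3 of 6 were called, FCRLA higher and FCRL3 and FCRL4 lower, against 28.7% (13.7% higher and 15.0% lower); FCRLA was not called there on log2(TPM + 1) (0.12, limma adjusted p 0.36). The rises in TMD8 depended on the unit. On log2(TPM + 1) by limma the median of all genes shifted by -0.13 at 150 nM and -0.29 at 500 nM, and on that scale FCRL3 at 500 nM turned to -0.19 (adjusted p 0.10), FCRL5 and FCRLA came to 0.06 and 0.07 (adjusted p 0.64 and 0.56), FCRL1 to -0.20 and FCRL2 to -0.34. Relative to that median the values were 0.10 for FCRL3, 0.34 for FCRL5, 0.36 for FCRLA, 0.09 for FCRL1 and -0.05 for FCRL2. At 150 nM FCRL3 was not called on log2(TPM + 1) (0.18, limma adjusted p 0.15) and lay 0.32 above the median. A single RNA, MIR3687, held 16.1 to 17.3% of all TPM with DMSO, 15.2 to 20.6% at 150 nM and 19.1 to 24.3% at 500 nM in TMD8, and its part in the shift was not tested.

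**Figure D3:**
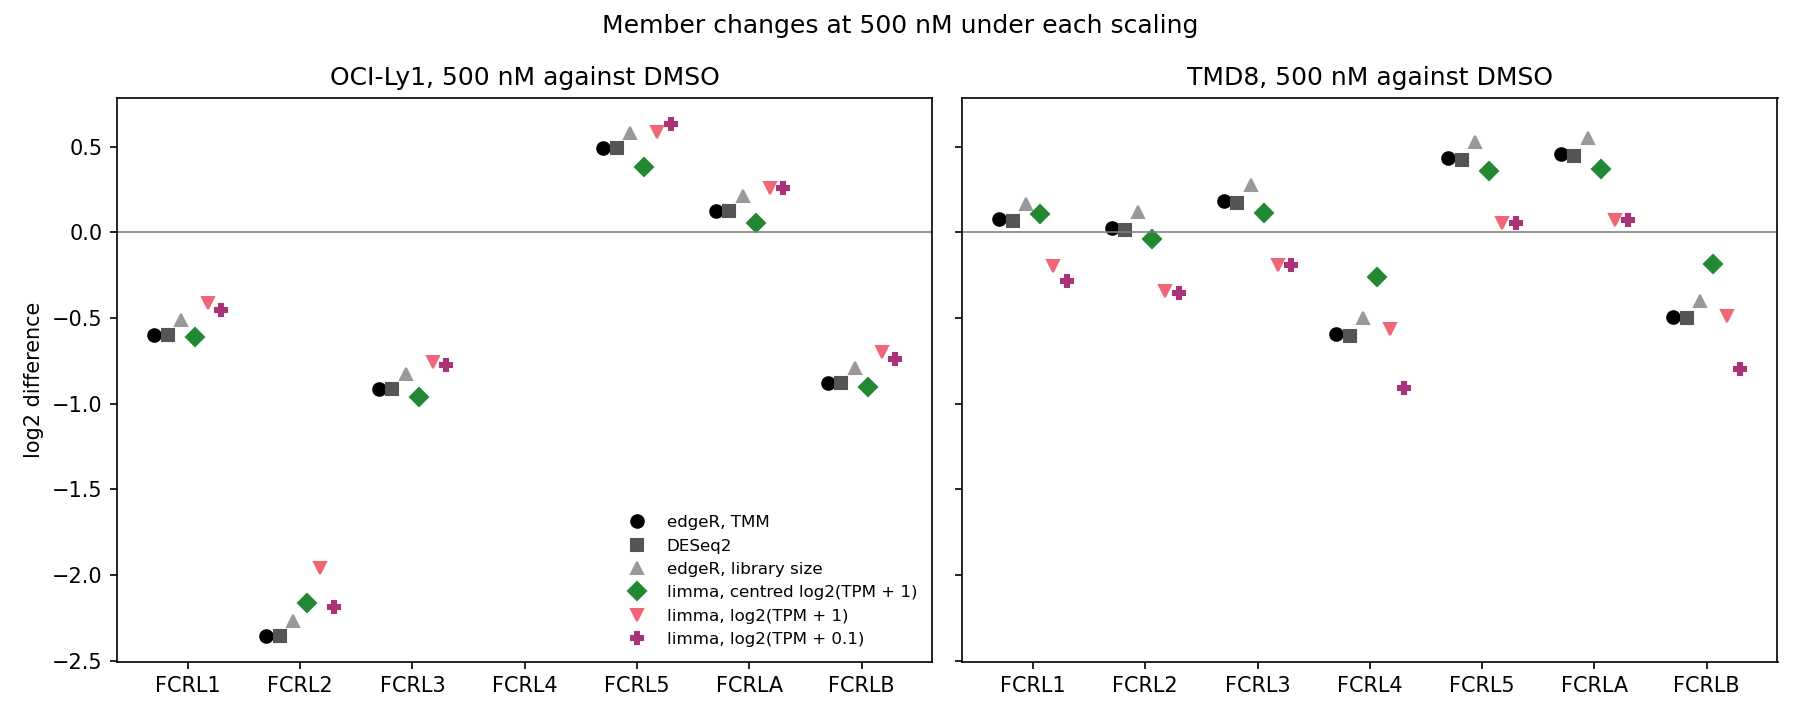
Log2 difference at 500 nM against DMSO (vertical axis) of each member in OCI-Ly1 (left) and TMD8 (right) under 6 combinations of tool and scaling, one symbol each. The OCI-Ly1 directions are alike under all 6, whereas in TMD8 FCRL1, FCRL2 and FCRL3 lie above 0 with TMM scaling and below it on log2(TPM + 1), at -0.20, -0.34 and -0.19.

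The 2 lines differed in how FCRL3 responded at either dose. In the fit of all 18 libraries, the OCI-Ly1 change minus the TMD8 change was -0.53 for FCRL3 at 150 nM (SE 0.07, edgeR adjusted p 8.8e-06) and -1.07 at 500 nM (SE 0.07, edgeR adjusted p 4.7e-12). On log2(TPM + 1) the FCRL3 differences were smaller, -0.34 and -0.57. FCRL5 differed at 150 nM (-0.34, SE 0.10, edgeR adjusted p 0.010), a call lost without OCI-Ly1 DMSO replicate 1 (-0.24, edgeR adjusted p 0.064) and on log2(TPM + 1) (-0.17, limma adjusted p 0.36), and not at 500 nM (0.09, 95% confidence interval -0.10 to 0.28, edgeR adjusted p 0.45), where log2(TPM + 1) called it (0.53, limma adjusted p 0.0019). FCRL1 differed at 500 nM (-0.65, SE 0.14, edgeR adjusted p 4.8e-04), though not on log2(TPM + 1) (-0.21, limma adjusted p 0.10). FCRLA differed at 500 nM (-0.30, SE 0.07, edgeR adjusted p 0.0010), with a rise in both lines that was larger in TMD8, but the sign turned on log2(TPM + 1) (0.19, limma adjusted p 0.14). For FCRLB the difference at 500 nM was -0.35 (95% confidence interval -0.71 to -0.002, edgeR adjusted p 0.097), called without TMD8 DMSO replicate 3 (-0.49, edgeR adjusted p 0.032) and on centred TPM (-0.66, limma adjusted p 7.0e-05), and turning to 0.06 on log2(TPM + 0.1). For FCRL2 the described difference was -2.35 at 500 nM and -0.23 at 150 nM, and -1.62 and -0.04 on log2(TPM + 1). In all, 2 of 5 members tested were called at 150 nM, both negative, against 23.3% of all genes (15.0% positive and 8.33% negative), and 3 of 5 at 500 nM, all negative, against 46.4% (28.2% positive and 18.1% negative). On log2(TPM + 1) the median of all genes lay at 0.14 and 0.44 in these comparisons.

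The share of each member in the summed TPM of the family compares members per transcript length and cancels any factor common to a library. In OCI-Ly1 FCRLA held 76.9 ± 0.150% of it with DMSO and 86.5 ± 0.575% at 500 nM. FCRL3 held 10.4 ± 0.251% and 5.70 ± 0.318%, and FCRL2 3.89 ± 0.0622% and 0.790 ± 0.0476%. The summed TPM itself was 454.8 ± 4.36 with DMSO and 483.1 ± 19.9 at 500 nM, so the make-up moved more than the total. In TMD8 FCRL3 held 30.5 ± 0.311% with DMSO and 28.7 ± 0.562% at 500 nM, FCRL5 26.9 ± 0.435% and 30.1 ± 0.523%, FCRLA 20.4 ± 0.331% and 23.1 ± 0.421%, and FCRL2 19.1 ± 0.264% and 16.0 ± 0.680%. These shares were not tested.

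**Figure D4:**
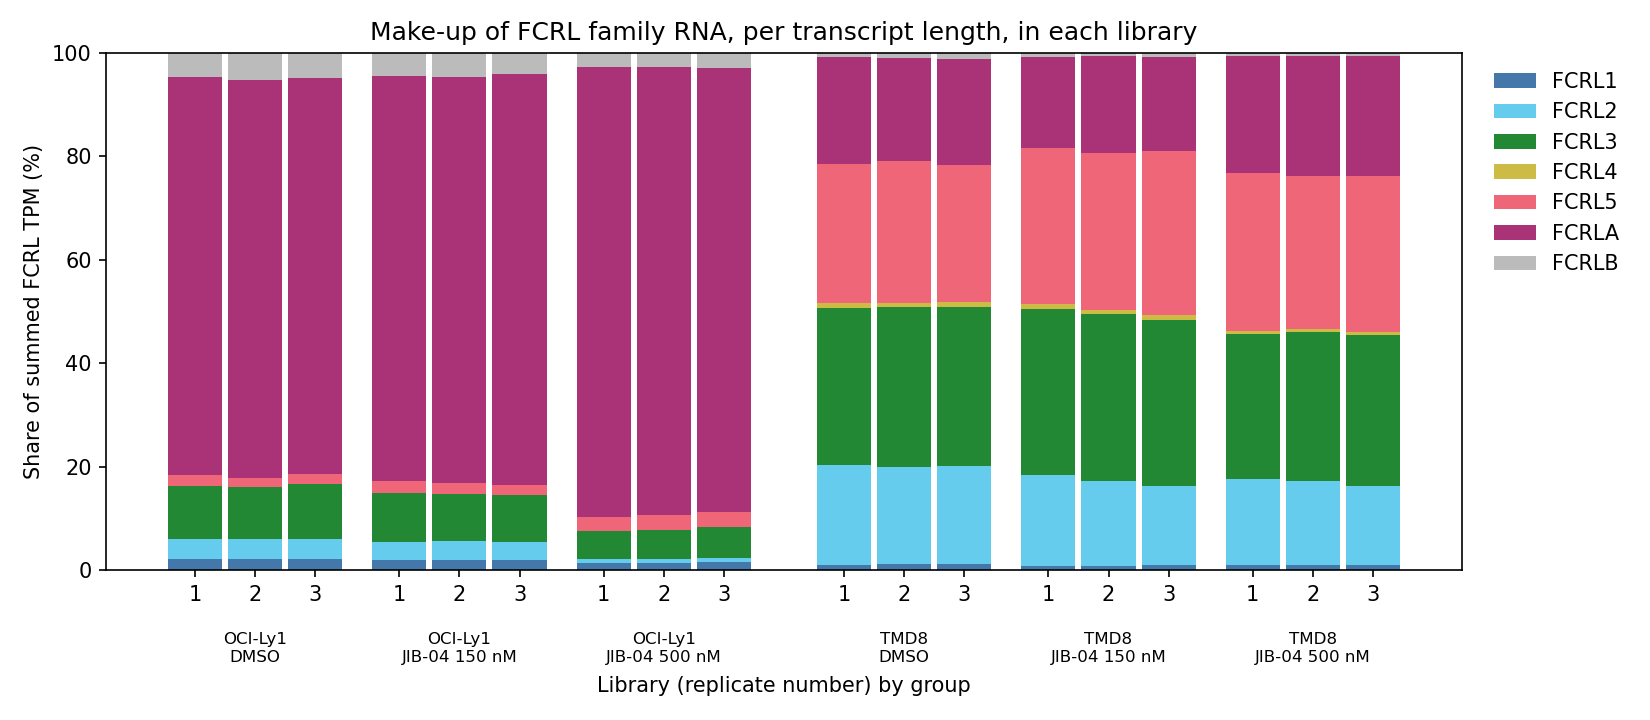
Share of the summed TPM of the 7 members (vertical axis, percent, from 0) in each of the 18 libraries, stacked by member, with replicate numbers and groups along the horizontal axis. FCRLA takes 76.9% of the OCI-Ly1 DMSO bars and 86.5% of the 500 nM bars, while FCRL3, FCRL5, FCRLA and FCRL2 each take 16.0 to 32.2% of the TMD8 bars on group means.

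The genes on either side of the clusters did not share one direction with them. Beside FCRL5, the transcription factor gene ETV3 had a log2 fold change of 0.26 at 500 nM in OCI-Ly1 and 0.16 in TMD8, the latter not called (edgeR adjusted p 0.086). Beyond FCRL1, CD1D, which encodes a lipid antigen-presenting molecule, was at -0.42 and -0.15, neither of them called (edgeR adjusted p 0.13 and 0.25). KIRREL had 0 counts in OCI-Ly1 DMSO libraries and 135 to 159 in those of TMD8, where it was at -0.60. Farther out, ARHGEF11 was at 2.91 in OCI-Ly1 on 6 to 12 DMSO counts, and at 0.61 in TMD8. Near FCRLA and FCRLB, the inhibitory Fc receptor gene FCGR2B was at -0.25 in OCI-Ly1 and -0.37 in TMD8. DUSP12 was at 0.15 in OCI-Ly1, which was not called (edgeR adjusted p 0.13), and -0.23 in TMD8. ATF6, a stress-response transcription factor gene, was at 0.58 in OCI-Ly1 and -0.09 in TMD8, the latter not called (edgeR adjusted p 0.21). Inside the first cluster, neighbours FCRL2 and FCRL3 were both lower in OCI-Ly1 and FCRL5 higher.

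**Figure D5:**
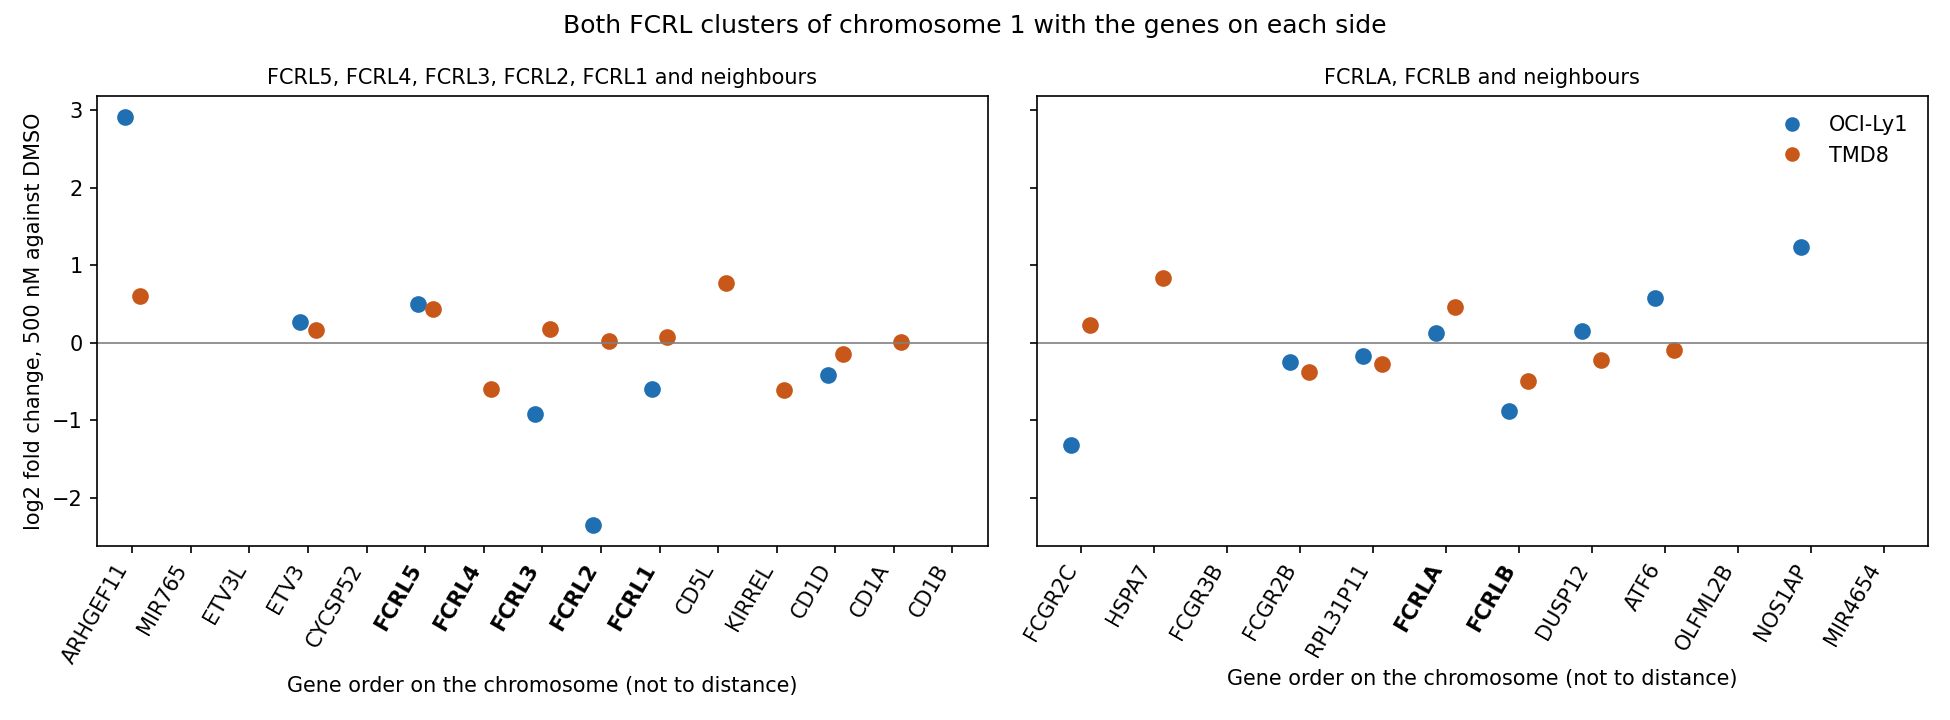
edgeR log2 fold change at 500 nM against DMSO (vertical axis) for members (bold) and the 5 genes on each side present in the tables, in chromosome order and not to distance, blue for OCI-Ly1 and orange for TMD8. Genes below the count filter or with a group at or under 3 counts per library have no point, FCRL4 in OCI-Ly1 among them; FCRL2 is the lowest point of the left panel at -2.35, with FCRL3 at -0.91 and FCRL1 at -0.60 beside it.

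The genes whose pattern over the 18 libraries lay nearest to that of FCRL2 were measured by the root-mean-square distance of log2 CPM, each taken against the DMSO mean of its own line, among 16603 genes. CAMP, which encodes the antimicrobial peptide cathelicidin, came first at 0.16; it was at -2.55 in OCI-Ly1 at 500 nM and had 0 counts in TMD8 with DMSO and at 500 nM. Its distance thus rests on OCI-Ly1 and shows no shared level in TMD8. MACC1 followed at 0.24 (log2 fold change -1.95 in OCI-Ly1 and 0.25 in TMD8), then the histone gene HIST4H4 at 0.25 (-1.80 and 0.03). CD1C, a lipid antigen-presenting molecule of B cells and dendritic cells, came next at 0.31, with 13 to 24 DMSO counts and 0 to 2 at 500 nM in OCI-Ly1 and -0.12 in TMD8. LGALS14, a galectin gene, was also at 0.31 (-1.91 and -0.02). The nearest member to FCRL2 was FCRL3, at 0.60 and rank 136, followed by FCRLB at 0.65 and rank 235.

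Nearest to FCRL3 were GM2A, SCAMP5 and SERPINB9, which were at -0.80, -0.80 and -0.78 in OCI-Ly1 against 0.35, 0.17 and 0.01 in TMD8 at 500 nM. Among the 3 nearest to FCRL1 were TPM3P9 and POU2F1, the latter encoding the octamer-binding factor Oct-1, at -0.53 and -0.67 in OCI-Ly1. For FCRL5 they were DVL1, NISCH and ABHD16A, at 0.52, 0.43 and 0.52 in OCI-Ly1 against 0.54, 0.49 and 0.43 in TMD8. For FCRLA they were ANKRD44, PLEKHG1 and ZBTB25, at 0.06, 0.17 and 0.11 in OCI-Ly1 against 0.45, 0.39 and 0.47 in TMD8. FCRLB was nearest to PSMB8, an immunoproteasome subunit gene, RASSF2 and CALR, a chaperone gene of the endoplasmic reticulum, at -0.72, -0.87 and -0.95 in OCI-Ly1 against -0.52, -0.52 and -0.51 in TMD8.

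Genes of related function were counted over 6 lists. Of all genes called at 500 nM, 51.6% were higher in OCI-Ly1 and 49.3% in TMD8 with TMM scaling, 64.0% and 59.4% with library size as the sole scaling, and 71.8% and 15.8% on log2(TPM + 1). The all-gene median at 500 nM was 0.12 in OCI-Ly1 on log2(TPM + 1), and in TMD8 it was 0.13 with library size as the sole scaling. In TMD8 the small negative medians of the inhibitory receptor, B-cell receptor, phosphatase and transcription factor lists turned positive with library size as the sole scaling (0.03, 0.01, 0.05 and 0.01). Of the other inhibitory receptors of B cells, 8 of 10 tested fell and 0 rose in OCI-Ly1 at 500 nM (median log2 fold change -0.51, all genes -0.003), where 25.9% of all genes were called lower; on log2(TPM + 1) 5 of 9 were lower and 0 higher. CEACAM1, an adhesion molecule with an inhibitory tail, fell by 0.98 on the log2 scale (edgeR adjusted p 2.8e-07), LILRB1 fell by 0.95 on 27 to 55 counts (edgeR adjusted p 0.0037), and PECAM1 fell by 0.92 (edgeR adjusted p 1.8e-05). In TMD8 at 500 nM, 1 of 11 was higher and 4 lower (median -0.06, all genes 0.04; 1 and 7 of 10 on log2(TPM + 1)), against 29.9% and 30.7% of all genes. CEACAM1 rose there by 1.68 (edgeR adjusted p 2.1e-10), CD5 fell by 0.74 (edgeR adjusted p 1.8e-07) and FCGR2B fell by 0.37 (edgeR adjusted p 2.4e-04).

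Classical Fc and immunoglobulin receptors were called in 4 of 7 tested genes in OCI-Ly1 at 500 nM, 1 higher and 3 lower (median -0.25), and in 6 of 10 in TMD8, 3 higher and 3 lower (median 0.13, and -0.22 on log2(TPM + 1)), near the 53.6% and 60.7% of all genes called. Of the 3 higher in TMD8, 1 was FCAMR, with 0 to 2 counts with DMSO and 7 to 13 at 500 nM. FCAMR thus passed the count filter through treated libraries, and no fold change is given for it. FCGRT, which encodes the neonatal Fc receptor, rose by 1.27 in OCI-Ly1 (edgeR adjusted p 5.6e-08), where the IgA receptor gene FCAR fell by 0.70 (edgeR adjusted p 7.4e-04) and the cytosolic antibody receptor gene TRIM21 fell by 0.25 (edgeR adjusted p 0.017); on log2(TPM + 1) TRIM21 was at -0.10 (limma adjusted p 0.34). In TMD8 the IgM receptor gene, listed as FAIM3, rose by 0.90 (edgeR adjusted p 2.0e-08), PIGR, which carries IgA across epithelia, fell by 0.78 (edgeR adjusted p 1.7e-08), and FCGRT rose by 0.43 (edgeR adjusted p 3.5e-04; 0.04 on log2(TPM + 1), limma adjusted p 0.63).

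Of the B-cell receptor complex and co-receptor genes, 3 of 13 rose and 8 fell in OCI-Ly1 (median -0.30), and 4 of 14 rose and 6 fell in TMD8 (median -0.08; 0 and 9 of 13 on log2(TPM + 1)). Among all genes 27.7% were higher and 25.9% lower in OCI-Ly1 and 29.9% and 30.7% in TMD8. The kinase gene BTK fell by 0.66 (edgeR adjusted p 1.3e-08) and VAV1 fell by 0.59 (edgeR adjusted p 7.7e-07) in OCI-Ly1, where the kinase subunit gene PIK3CD rose by 0.44 (edgeR adjusted p 3.0e-05). In TMD8 the kinase genes BLK and SYK fell by 0.62 and 0.59 (edgeR adjusted p 2.3e-06 and 2.0e-08), and the adaptor gene BLNK rose by 0.44 (edgeR adjusted p 2.6e-06; 0.08 on log2(TPM + 1), limma adjusted p 0.60).

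Of the phosphatases and adaptors that inhibitory receptors recruit, 2 of 8 were higher and 2 lower in OCI-Ly1 (median 0.02, and -0.05 on centred TPM) and 3 of 8 higher and 3 lower in TMD8 (median -0.04; 0 and 5 on log2(TPM + 1)). Of all genes, 27.7% were higher and 25.9% lower in OCI-Ly1, close to the list's counts, and 29.9% and 30.7% in TMD8. CSK, a kinase that restrains SRC-family kinases, fell by 0.79 in OCI-Ly1 (edgeR adjusted p 3.0e-08) and fell by 0.66 in TMD8 (edgeR adjusted p 1.3e-09). The adaptor gene DOK3 fell by 0.67 and DOK1 rose by 0.34 in OCI-Ly1 (edgeR adjusted p 3.4e-05 and 0.020), the latter not called on centred TPM (0.23, limma adjusted p 0.10). PTPN6, the phosphatase SHP-1 that FCRL tails recruit, had 13 to 16 counts per OCI-Ly1 DMSO library but 353 ± 13.2 CPM in TMD8, where it fell by 0.84 (edgeR adjusted p 1.5e-10). PTPN11, the related SHP-2, fell by 0.65 in TMD8 (edgeR adjusted p 1.7e-08).

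Among 18 B-cell transcription factor genes, 6 rose and 6 fell in OCI-Ly1 (median 0.05, and -0.02 on centred TPM), and 5 rose and 9 fell in TMD8 (median -0.08; 0 and 11 of 17 on log2(TPM + 1)), against 27.7% higher and 25.9% lower of all genes in OCI-Ly1 and 29.9% and 30.7% in TMD8. IRF4, a regulator of plasma-cell fate, rose by 0.94 in OCI-Ly1 (edgeR adjusted p 1.1e-10) and fell by 0.66 in TMD8 (edgeR adjusted p 2.5e-08). IKZF1, the lymphoid factor Ikaros, fell by 0.79 and by 0.94 (edgeR adjusted p 4.2e-10 and 1.9e-10). BACH2, a repressor of plasma-cell fate, rose by 0.67 in OCI-Ly1 (edgeR adjusted p 3.5e-09) and by 0.998 in TMD8 on 8 to 17 counts with DMSO and at 500 nM (edgeR adjusted p 0.014; DESeq2 adjusted p 0.069).

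Of 10 genes linked to FCRL4- and FCRL5-expressing memory B cells, 8 were tested in OCI-Ly1 at 500 nM, with 4 higher and 0 lower (3 and 0 by DESeq2; median 0.27), and 9 in TMD8, with 4 higher and 1 lower (median 0.09; 1 and 4 of 8 on log2(TPM + 1)). The shares of all genes were 27.7% higher and 25.9% lower in OCI-Ly1 and 29.9% and 30.7% in TMD8. ZEB2, a transcription factor gene, rose by 1.27 in OCI-Ly1 (edgeR adjusted p 4.5e-11), and the costimulatory ligand gene CD80 rose by 0.44 (edgeR adjusted p 0.043; DESeq2 adjusted p 0.058; 0.19 on centred TPM, limma adjusted p 0.20). TBX21, which encodes the factor T-bet, had 0 counts with DMSO and 12 to 27 at 500 nM in OCI-Ly1. In TMD8 TBX21 had 0 to 6 counts with DMSO and 10 to 13 at 500 nM (log2 2.22, edgeR adjusted p 0.0017), DUSP4 rose by 0.94 (edgeR adjusted p 8.2e-06) and CD80 rose by 0.61 (edgeR adjusted p 4.9e-08; 0.22 on log2(TPM + 1), limma adjusted p 0.094). FCRL6, a further gene of the family's name that is not among the 7, had 1 to 13 counts per library over all 6 groups.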

How the data were processed

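RNA-seq libraries of OCI-Ly1 and TMD8 (9 each) were compared. Per the submitters' processing notes, kallisto 0.46.0, R 4.3.1, DESeq2 1.40.2 and hg19 were used, with no role given; the index, annotation and strand setting are not given in the sources used here. The authors deposited estimated counts and TPM (transcripts per 1000000) for 23686 gene symbols per line. Estimated counts were rounded. kallisto splits reads shared by similar genes by estimation, which can move counts between paralogs.

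The members and gene lists were chosen with earlier results of these data known. edgeR 4.0.16 (R 4.3.3) quasi-likelihood tests were fitted over all genes kept by filterByExpr (minimum count 10), per line over 3 dose groups, or over all 18 libraries for line differences, with TMM scaling and Benjamini-Hochberg adjustment at 0.05. FCRL4 was below the filter in OCI-Ly1 and, with a group at or under 3 counts per library, was not tested between lines. Alternatives were DESeq2 1.42.0, library-size scaling, no filter, limma 3.58.1 on log2(TPM + 1) or log2(TPM + 0.1) for genes at 0.5 TPM or more in 3 libraries, with and without median centring, a replicate block, the compared groups alone, and leaving out each library. Named genes were all members, the 3 called genes of each related list with the largest change at 500 nM in each line, the 5 genes nearest to FCRL2 and 3 nearest to each other member passing the filter, and 5 neighbours on each side. A few genes that this rule names are not reported here. The fits were first checked on simulated data. Replicates differed by more than sampling noise in all 18 pairs compared (chi-square per degree of freedom 1.65 to 11.5). Promoters and gene order are RefSeq's (GRCh38.p14), and only the promoters carry coordinates, since the notes name hg19, another build. Figures were drawn with matplotlib 3.10.9.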

Additional observations from a re-analysis of the deposited data

Results flagged for a closer look

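By a test of the difference itself, the change with JIB-04 differed between the lines at 500 nM for 3 of 5 members tested, against 46.4% of all genes. At 150 nM it differed for 2 of 5, against 23.3%. At 150 nM the OCI-Ly1 change minus the TMD8 change was -0.53 on the log2 scale for FCRL3 and -0.34 for FCRL5. At 500 nM it was -0.65 for FCRL1, -1.07 for FCRL3 and -0.30 for FCRLA. Of these, FCRL3 was called at both doses. On log2(TPM + 1) FCRL5 at 150 nM and FCRL1 at 500 nM were not called (limma adjusted p 0.36 and 0.10), and FCRLA at 500 nM turned to 0.19 (limma adjusted p 0.14). Line and medium cannot be told apart in these differences.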

How the results depend on the processing

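Of 147 recomputed counts of called members, 136 lay within 1.5 times the reported count, 10 were lower and 1 was higher. The lower ones were 1 for the line difference at 150 nM, 1 for TMD8 at 150 nM and 2 for TMD8 at 500 nM, each on log2(TPM + 1) with and without a filter and on log2(TPM + 0.1). Leaving out 1 library gave 1 to 2 members for the line difference at 150 nM (1 without OCI-Ly1 DMSO replicate 1) and 2 to 4 for TMD8 at 150 nM (4 without TMD8 DMSO replicate 1). For single members, 821 of 927 values kept their direction and side of the threshold, or moved by less than 1 SD for FCRL2, and 28 reversed. The described FCRL2 differences moved by more than 1 SD in 28 values; at 500 nM they were -1.96 in OCI-Ly1, -0.34 in TMD8 and -1.62 between the lines on log2(TPM + 1). On log2(TPM + 1), with and without a filter, and log2(TPM + 0.1), the reversed values were -0.20 and -0.28 for FCRL1 and -0.19 and -0.19 for FCRL3 in TMD8 at 500 nM, -0.054 and -0.055 for FCRLA in TMD8 at 150 nM, 0.10 and 0.10 for FCRLA in the line difference at 150 nM, and 0.19 and 0.19 at 500 nM. FCRLB in the line difference at 500 nM came to 0.058 on log2(TPM + 0.1). With library size as the sole scaling the line differences at 150 nM came to -0.059 for FCRL1 and -0.062 for FCRLB, and on centred TPM to -0.0573 for FCRLB. Leaving out a library moved FCRL1 between -0.049 and 0.17 and FCRLB between -0.11 and 0.088 in the line difference at 150 nM, and FCRLA between -0.022 and 0.031 in OCI-Ly1 at 150 nM, none of which was called. The cause was not tested. The deviations of same-numbered libraries had r -0.04 to 0.12 in OCI-Ly1 (2 of 9 pairs above 0.1) and -0.04 to 0.09 in TMD8 (0 of 9). Between DMSO and 150 nM these r were 0.10, 0.01 and 0.12 in OCI-Ly1. In TMD8 they were 0.09, -0.03 and 0.09. Differently numbered pairs of DMSO and 150 nM had r -0.14 to 0.03 in OCI-Ly1 and -0.13 to 0.07 in TMD8. Same-numbered pairs that included 500 nM had r -0.04 to 0.01 in OCI-Ly1 and -0.04 to 0.02 in TMD8. Whether the numbers pair the libraries was not tested. With a replicate block the counts of called members were the reported ones in all 9 comparisons (5 in OCI-Ly1 and 5 in TMD8 at 500 nM). The block took the calls over all genes in OCI-Ly1 at 150 nM from 139 to 207. That all-gene count was 240 with DESeq2, 323 with no filter, 60, 65, 47 and 36 on log2(TPM + 1), log2(TPM + 0.1), log2(TPM + 1) with no filter and centred TPM, 81 in a fit of the compared groups alone, and 65 to 339 when 1 library was left out (65, 86 and 339 without 150 nM replicate 2, DMSO replicate 2 and 150 nM replicate 1). In TMD8 at 150 nM it went from 6790 to 4284 on log2(TPM + 1) with no filter. FCRL4 in OCI-Ly1 and FCRLB in TMD8 rest on few counts, 0 to 8 and 28 to 98 per library.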
